A study of Mus musculus with 6 samples.

Results

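The 9 serotonin receptor genes Htr1a, Htr1b, Htr1f, Htr2a, Htr2c, Htr3a, Htr4, Htr5a and Htr7 were examined in RNA sequencing libraries of mouse brain tissue, and they were found by gene symbol among the 13170 genes of the deposited table. The tested animals were C57 mice labelled as a group with high sexual motivation (3 libraries), set against C57 mice labelled as a group with low sexual motivation (3 libraries). The title of the series speaks of adult males, and no treatment or engineered allele is named for either group. The labels name the tissue in several ways: the title has the medial amygdala, the extraction protocol writes PrL, and the tissue entry says brain. The labels do not say how motivation was scored or whether a library came from 1 animal or from several. The p-values therefore measure only library-to-library spread, part of which may be technical. Per the labels' protocols the libraries keep strand, but no source says whether counting used it, so antisense transcripts cannot be told apart.

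Serotonin reaches the forebrain through the axons of raphe neurons and acts on a large receptor family. Htr1a, Htr1b, Htr1f and Htr5a encode receptors that couple to Gi/o proteins and lower cyclic AMP, Htr4 and Htr7 encode receptors that couple to Gs and raise it, and Htr2a and Htr2c encode receptors that act through Gq and phospholipase C. Htr3a encodes a subunit of the one member of the family that is an ion channel, which is known as a marker of a class of cortical interneurons. The medial amygdala processes social odours and takes part in male sexual behaviour, which serotonin is generally known to restrain.

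Values are FPKM, that is fragments scaled to a length taken for each gene, described below, and to the mapped fragments of a library. The FPKM fall on regular steps, from which the depth could be read: the values of most genes turned into whole fragment counts at 14269000, 19005000 and 15445000 fragments in high libraries 1, 2 and 3, and at 13703000, 17841000 and 13610000 fragments in low libraries 1, 2 and 3. Low libraries 1 and 3 carried transcripts of the choroid plexus, the epithelium that makes cerebrospinal fluid. Of 22 markers of that tissue 20 are listed. Their summed level was 86.8, 124 and 55.4 FPKM in the high libraries, against 1376, 93.4 and 4269 FPKM in the low libraries. Markers of ependymal cells, which line the ventricles, were lower in the high group in 7 of 7 tested genes, 0 of which passed (summed level 12.1, 14.3 and 13.0 FPKM in the high libraries, against 29.2, 21.7 and 41.7 FPKM in the low libraries). High library 2 stood apart in another way. The share of FPKM from mitochondrial genes was 11.1% there, against 13.6% to 16.4% in the rest. Among markers of the labelled tissue, Lhx6, a transcription factor of medial amygdala and of cortical interneurons, stood at 7.67 to 9.50 FPKM over the 6 libraries. Other markers, listed jointly for medial amygdala and hypothalamic neurons, differed widely in level. The oestrogen receptor gene Esr1 was low, at 0.446 to 1.16 FPKM, and so was Lhx9, at 0.396 to 1.04 FPKM. Higher levels were seen for Nos1, at 21.4 to 31.9 FPKM, Slc17a6, at 9.99 to 18.8 FPKM, and Tac1, at 6.67 to 11.2 FPKM. Cyp19a1, the aromatase gene, is not listed and was not analysed here.

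A short stretch of the Htr2c coding sequence is shown because it is the place where this transcript is edited, and because the editing enzymes were measured too. Adenosines in the capital letters are the known targets of conversion to inosine, which changes the second intracellular loop of the receptor and weakens its coupling to Gq. The stretch lies on the plus strand in exon 5 of 6 of transcript ENSMUST00000036303.8, at chrX:147169677-147169706 in GRCm38, and is given 5′ to 3′.
Htr2c, edited stretch: tatgtagcaATACGTAATCCTATTgagcat
The FPKM count edited and unedited copies alike. Of 3 genes of the editing enzyme family 0 passed. Adarb1, which encodes an editing enzyme of this site, had 19.03, 19.4 and 19.1 FPKM in the high libraries, against 19.8, 18.8 and 18.1 FPKM in the low libraries (log2 difference 0.02, SE 0.0592; limma adjusted p = 0.927). Adar, the other such enzyme, averaged 26.6 ± 1.03 FPKM in high libraries and 26.2 ± 1.66 FPKM in low libraries (SD, n = 3 each; limma adjusted p = 0.945). Adarb2, which encodes a catalytically inactive relative and also marks interneurons of the Htr3a class, had 2.52, 2.21 and 2.83 FPKM in the high libraries, against 2.16, 1.91 and 1.92 FPKM in the low libraries (log2 difference 0.23, SE 0.0964; limma adjusted p = 0.586).

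Promoter windows are shown for Htr1a, Htr2a and Htr2c, because each of these had its lowest value in high library 2, as described below. Htr4 was lowest there too, but no promoter window was found for it. The bases lie upstream of the annotated starts in RefSeq (GRCm38.p6) and GENCODE, and are given 5′ to 3′ on the plus strand, with GC boxes in capitals.
Htr1a, chr13:105443443-105443638: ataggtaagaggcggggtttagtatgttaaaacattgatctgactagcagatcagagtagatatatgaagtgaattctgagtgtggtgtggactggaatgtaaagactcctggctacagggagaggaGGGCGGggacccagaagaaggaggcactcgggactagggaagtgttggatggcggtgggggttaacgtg
Htr2a, chr14:74640624-74640839: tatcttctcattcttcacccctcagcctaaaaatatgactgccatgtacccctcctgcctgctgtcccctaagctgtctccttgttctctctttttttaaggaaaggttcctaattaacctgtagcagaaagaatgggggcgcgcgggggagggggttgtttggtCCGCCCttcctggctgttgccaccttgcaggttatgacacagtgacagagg
Htr2c, chrX:146962263-146962512: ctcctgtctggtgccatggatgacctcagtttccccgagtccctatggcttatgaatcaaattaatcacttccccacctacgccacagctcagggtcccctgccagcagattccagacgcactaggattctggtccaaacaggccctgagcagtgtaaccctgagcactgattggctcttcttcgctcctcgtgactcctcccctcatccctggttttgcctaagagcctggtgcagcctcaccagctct
The GC box was searched as GGGCGG on either strand in the 250 bases before the RefSeq start. Htr1a and Htr2a hold 1 each. Htr2c holds 0, and so do the windows of Htr1b, Htr1f, Htr5a and Htr7, which are not printed. Of 32851 promoter windows, 32.7% hold at least 1. The TATA box, searched as TATAAA on either strand, is in 0 of the 3 printed windows and in 12.4% of all windows. RefSeq windows were found for 7 of the 9 receptor genes. Their GC content was 50.4% in Htr1a, 52.8% in Htr2a and 55.6% in Htr2c, and the highest was that of Htr7, at 82.0%. The median over all windows was 52.4%.

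Htr2c was the most abundant of the receptor transcripts in every library. Its mean over the 6 libraries was 12.1 FPKM, higher than that of 69.5% of the genes in the table. Next came Htr3a at 5.81, Htr7 at 4.56, Htr5a at 4.28, Htr1a at 3.43, Htr1b at 3.35 and Htr2a at 2.40 FPKM. Htr4 at 0.956 and Htr1f at 0.568 FPKM were the lowest. Neighbours in this order were compared within libraries by an exact 2-sided sign-flip permutation test of log2 FPKM, over 8 pairs, where the smallest p that 6 libraries allow is 0.0312. Htr2c exceeded Htr3a in 6 of 6 libraries, by 1.05 ± 0.482 on the log2 scale (SD, n = 6; exact p = 0.0312, adjusted 0.0625). The step from Htr1b to Htr2a (0.49 ± 0.342), that from Htr2a to Htr4 (1.32 ± 0.419) and that from Htr4 to Htr1f (0.76 ± 0.453) held in 6 of 6 libraries each, with the same exact p. In the middle of the order the steps held in fewer libraries. Htr3a exceeded Htr7 in 4 of 6 libraries (exact p = 0.125) and Htr7 exceeded Htr5a in 4 (exact p = 0.219). Htr5a exceeded Htr1a in 5 (exact p = 0.0625) and Htr1a exceeded Htr1b in 3 (exact p = 0.75). No step had an adjusted p under 0.05, and the order tested was itself ranked from these same values.

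The length by which a gene was divided bears on its place in this order. For 7 of the 9 genes the values became whole fragments at the length of all annotated exons merged. For Htr2c, with 7 annotated transcripts, that length is 9328 bases, whereas its longest coding transcript has 4883 bases. With the shorter length the same fragments would give a mean of 23.1 FPKM. For Htr7 the lengths are 3399 and 3079 bases, and the mean would be 5.03 FPKM. Htr2c rested on 1395 to 1898 fragments per library. Htr1f rested on 14 to 29 fragments, at a length of 2509 bases where the annotation has 2579, and Htr4 on 54 to 103 fragments, at 4657 bases.

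**Figure D1:**
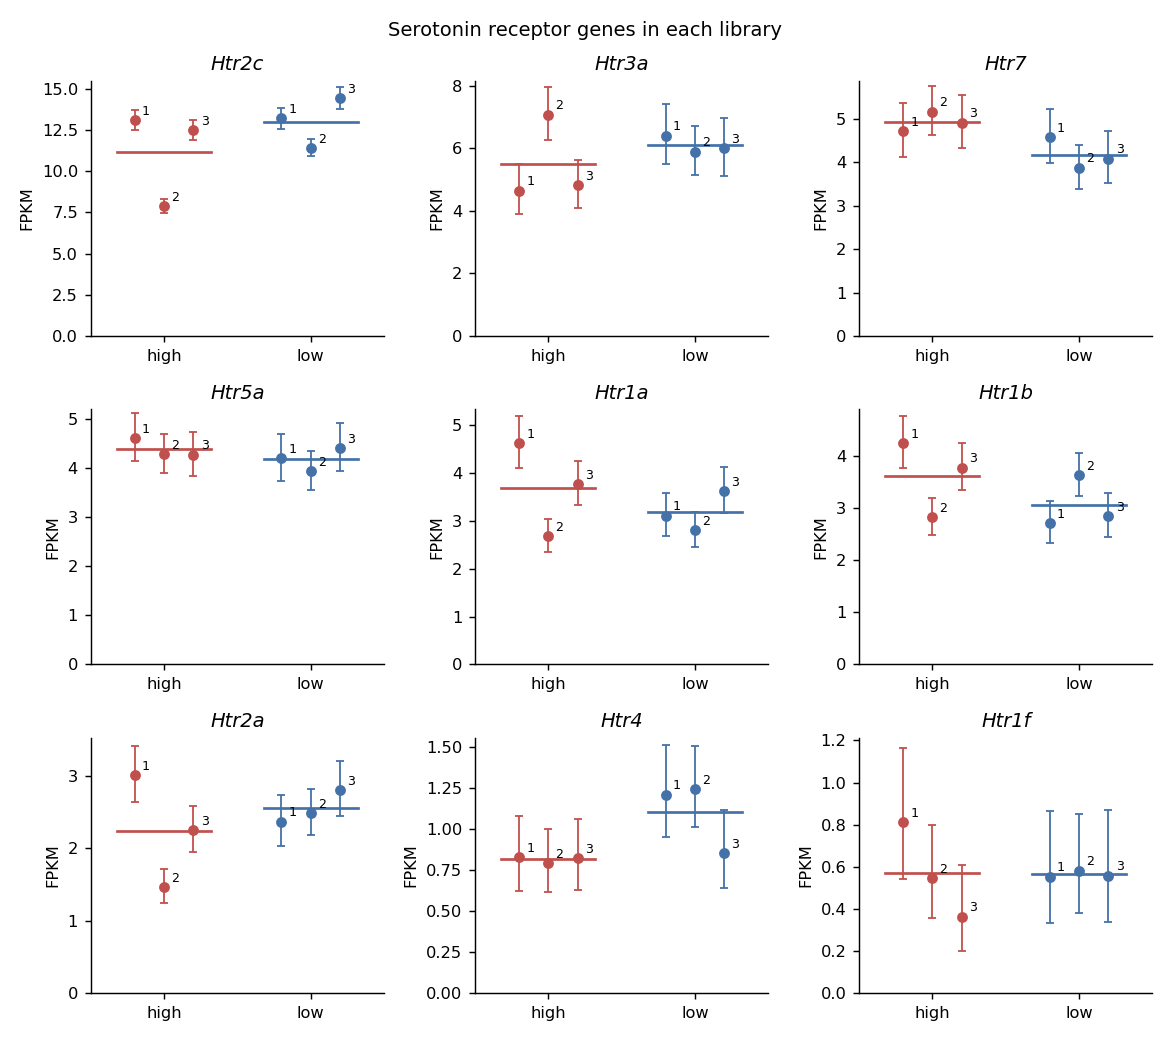
FPKM of each serotonin receptor gene (y axis, from 0) in the 3 high libraries (red) and the 3 low libraries (blue), numbered by replicate, with panels ordered by mean level. Error bars are exact Poisson 95% intervals of the fragments, which cover counting error only, and horizontal lines are group means; the groups do not overlap in Htr7 and in Htr4, and high library 2 lies lowest in Htr2c, Htr2a, Htr1a and Htr4.

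Between the groups, 4 of the 9 receptor genes had the higher mean log2 value in the high group and 5 had the lower. None passed the test. The groups were compared by limma on log2(FPKM + 1) over all 12026 genes with a mean of at least 1 FPKM, with Benjamini-Hochberg adjustment at 0.05. Htr4 and Htr1f lay under that mean, so their values come from the same fit to all 13170 genes. The adjusted p-values of the 9 genes ran from 0.582 to 0.998. Over all tested genes 0 were called (0%), while 1009 (8.39%) had an unadjusted p under 0.05. Of the receptor genes, 1 had such a p. Groups that do not overlap were seen in 2 of the 9 genes (22.2%), against 14.8% of all genes in the table and 14.9% of those above the filter. Of all genes in the table, 7.17% were separated with the high group higher, as Htr7 was, and 7.59% with the high group lower, as Htr4 was. A log2 difference is the high group minus the low group, and an exact permutation test of 3 against 3 cannot give a p under 0.1. In such bulk tissue, fewer cells of a type and less RNA per cell cannot be told apart.

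**Figure D2:**
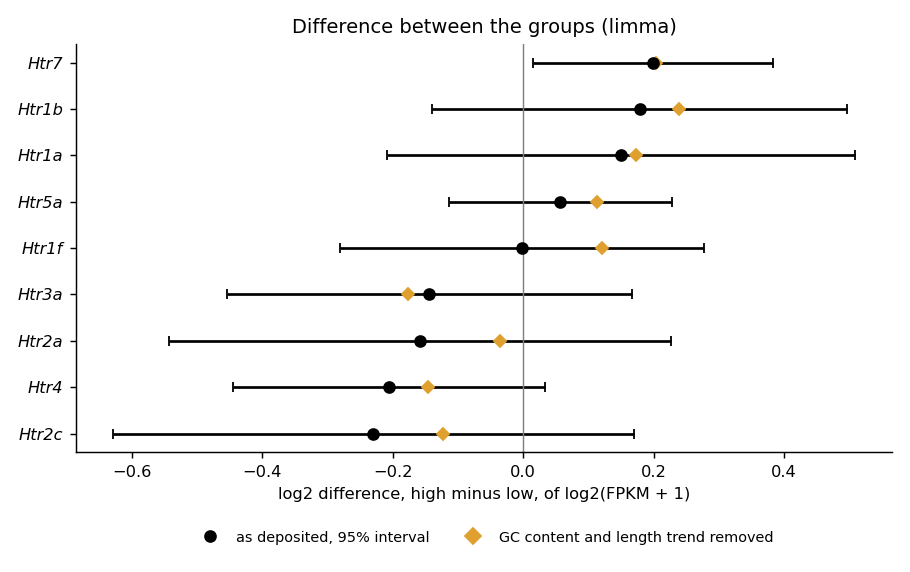
Log2 difference between the groups, high minus low, of log2(FPKM + 1) for each receptor gene. Black points are the limma estimates with 95% intervals and orange diamonds are the estimates after a trend on transcript GC content and length was removed; Htr7 is the 1 gene whose interval, unadjusted, lies on 1 side of 0.

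Htr7, one of the Gs-coupled receptors and linked to circadian and thermal regulation, was higher in every high library than in any low library. It had 4.72, 5.17 and 4.91 FPKM in the high libraries, against 4.57, 3.88 and 4.09 FPKM in the low libraries. The gap between the nearest libraries, high library 1 and low library 1, was smaller than the counting error, since 229 fragments give an interval of 4.13 to 5.37 FPKM and 213 fragments one of 3.98 to 5.23 FPKM. The means were 4.94 ± 0.225 and 4.18 ± 0.358 FPKM in the high and low groups (SD, n = 3 each), a ratio of 1.18. The log2 difference was 0.20 (SE 0.0797; 95% interval 0.01 to 0.38; limma adjusted p = 0.582), and the exact permutation p was 0.1. The authors' deposited table gives Htr7 an unadjusted p of 0.0361, where 7.4% of all genes in that table are under 0.05. With limma-voom on the fragments, an alternative added after seeing the data, its unadjusted p was 0.0478 (adjusted p = 0.587), where 8.41% of genes were under 0.05. In other limma fits the unadjusted p of Htr7 lay on both sides of 0.05. It was 0.0795 with a replicate block, 0.0837 with array weights and 0.0751 with the choroid plexus covariate. Lower values came with 0.1 added (0.0366), no filter (0.0392), median-ratio scaling (0.0353) and quantile normalization (0.0291). The same held with no variance trend (0.0332) and with the GC content and length trend removed (0.027). With each library left out in turn it ran from 0.0226 to 0.125. Htr7 lies on chromosome 19 from 35958734 to 36057507 on the minus strand in GRCm38.

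Htr4, the other Gs-coupled receptor, had the lower values in the high group, and the groups were narrowly separate. It had 0.828, 0.791 and 0.820 FPKM in the high libraries, against 1.21, 1.24 and 0.852 FPKM in the low libraries. Low library 3, with 54 fragments and an interval of 0.640 to 1.11 FPKM, covered all 3 high values. The group means were 0.813 ± 0.0195 FPKM in high libraries and 1.099 ± 0.215 FPKM in low libraries (SD, n = 3 each), a ratio of 0.739. The SD of the high group amounts to 2.40% of its mean, where counting alone gives 12.8% for 1 library, so the 3 values lay closer together than their counting intervals. The unfiltered log2 difference was −0.21 (SE 0.104; limma adjusted p = 0.604). The added 1 compresses differences at so low a level: with 0.1 added it was −0.38. With 1 added and the choroid plexus covariate in the fit, the log2 difference of Htr4 was −0.34. The gene passed in neither fit. Summed, the Gs-coupled pair had 5.55, 5.96 and 5.73 FPKM in the high libraries, against 5.78, 5.12 and 4.94 FPKM in the low libraries, which overlap.

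Htr2c, the Gq-coupled receptor best known for restraining appetite and dopamine release, had 13.1, 7.87 and 12.5 FPKM in the high libraries, against 13.2, 11.4 and 14.4 FPKM in the low libraries. High library 2 was the lowest of the 6, and the other high libraries lay within the range of the low group. Means were 11.1 ± 2.85 and 13.0 ± 1.51 FPKM in the high and low groups (SD, n = 3 each), with a log2 difference of −0.23 (SE 0.173; 95% interval −0.63 to 0.17; limma adjusted p = 0.717). Without high library 2 it was −0.02. Htr2c is also expressed by choroid plexus epithelium, and its highest value was in low library 3, where the plexus markers were highest. A fit with the mean plexus marker level as covariate gave a log2 difference of −0.08 (SE 0.23). The covariate was high in low libraries 1 and 3 only, so this fit cannot fully separate it from the group. Set against low library 2 alone, without low libraries 1 and 3, the high group differed by −0.06. The part of choroid plexus in the values of Htr2c was not tested. Htr2c lies on chromosome X from 146962513 to 147197277 on the plus strand.

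Htr2a, the cortical Gq-coupled receptor on which psychedelic drugs act, had 3.01, 1.46 and 2.25 FPKM in the high libraries, against 2.37, 2.49 and 2.80 FPKM in the low libraries. Both the highest and the lowest of the 6 values were in the high group. Its means were 2.24 ± 0.774 and 2.55 ± 0.225 FPKM in the high and low groups (SD, n = 3 each; log2 difference −0.16, SE 0.167; limma adjusted p = 0.793). The difference was 0.03, on the other side of 0, without high library 2, and it was −0.33 without high library 1. High library 2 held 156 fragments of Htr2a, the fewest of any library, although it was the deepest. Htr2a lies on chromosome 14 from 74640840 to 74709494 on the plus strand.

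Htr1a, the Gi/o-coupled receptor that serves as autoreceptor on raphe neurons and is abundant in limbic regions, had 4.63, 2.68 and 3.77 FPKM in the high libraries, against 3.11, 2.80 and 3.62 FPKM in the low libraries. High library 2 was again the lowest and high library 1 the highest. The log2 difference was 0.15 (SE 0.156; limma adjusted p = 0.791). Leaving out high library 1 gave 0.01, and leaving out high library 2 gave 0.32. Htr1a lies on chromosome 13 from 105443639 to 105448122.

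Htr1b, a Gi/o-coupled receptor of axon terminals, had 4.26, 2.83 and 3.78 FPKM in the high libraries, against 2.72, 3.64 and 2.85 FPKM in the low libraries. Its gene lies on chromosome 9 from 81628291 to 81633828 on the minus strand. The values formed a higher trio, made up of high libraries 1 and 3 and low library 2, and a lower trio. The log2 difference was 0.18 (SE 0.138; limma adjusted p = 0.722). Striatal neurons are a known source of Htr1b transcripts, and the summed level of 8 striatal markers was 334, 140 and 230 FPKM in the high libraries, against 178, 283 and 130 FPKM in the low libraries. The sum was highest in the same 3 libraries as Htr1b, and so were 5 of the 8 markers taken singly. The largest part of the sum was Penk, the enkephalin gene, which had 207, 88.4 and 163 FPKM in the high libraries, against 111, 174 and 62.1 FPKM in the low libraries. Ppp1r1b, Pde10a and Rgs9 had other top libraries, and Ppp1r1b, a phosphatase inhibitor of striatal neurons, had 50.6, 23.7 and 25.5 FPKM in the high libraries, against 29.9, 38.7 and 39.1 FPKM in the low libraries. The summed level of 8 endothelial and mural cell markers was also highest in the 3 libraries where Htr1b was. It was 93.7, 65.0 and 74.5 FPKM in the high libraries, against 57.6, 67.4 and 66.0 FPKM in the low libraries. How many of all genes share these top libraries was not counted. The part of striatal or other tissue in the values of Htr1b was not tested. With low libraries 1 and 3 left out, the log2 difference of Htr1b was −0.02.

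**Figure D3:**
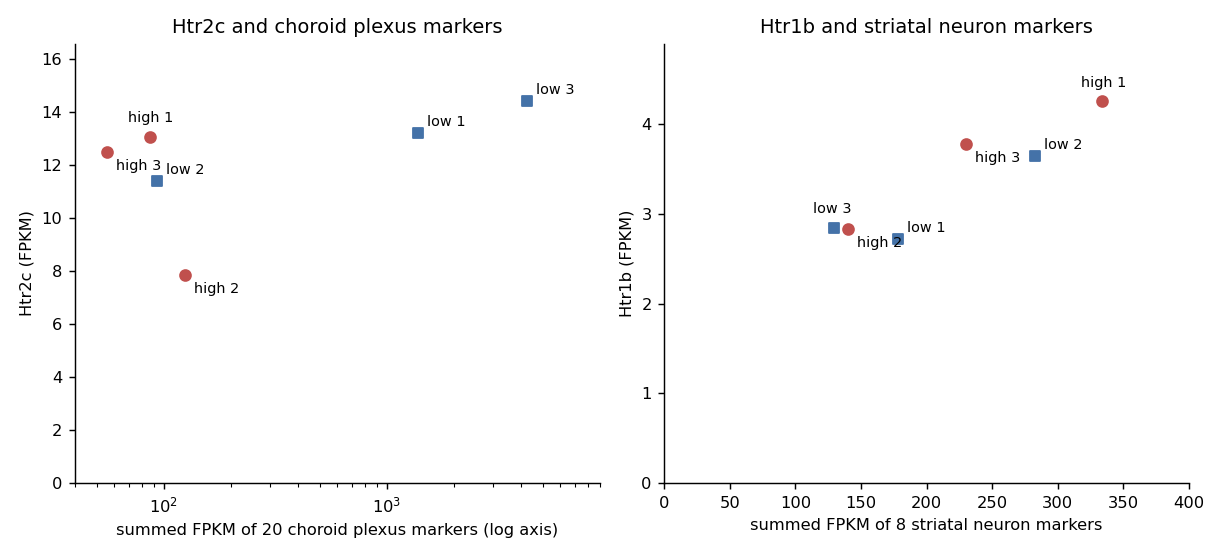
Left, Htr2c (FPKM) against the summed FPKM of 20 choroid plexus markers on a log axis; right, Htr1b (FPKM) against the summed FPKM of 8 striatal neuron markers; 1 point per library, high in red circles and low in blue squares. High libraries 1 and 3 have Htr2c of 13.1 and 12.5 FPKM at low plexus sums, and the 3 libraries with the highest Htr1b are those with the highest striatal sums.

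Htr5a, a Gi/o-coupled receptor found mainly in the brain, had the smallest spread over the 6 libraries among the 9. Its gene lies on chromosome 5 from 27842149 to 27855088 on the plus strand. It had 4.60, 4.28 and 4.26 FPKM in the high libraries, against 4.19, 3.93 and 4.401 FPKM in the low libraries, and its highest value was 1.17 times its lowest. The log2 difference was 0.06 (SE 0.0741), with a 95% interval of −0.11 to 0.23 and a limma adjusted p of 0.835. Htr1f, the Gi/o-coupled receptor targeted by some migraine drugs, had 0.810, 0.545 and 0.361 FPKM in the high libraries, against 0.553, 0.581 and 0.556 FPKM in the low libraries. It lies on chromosome 16 from 64924729 to 65105854 on the minus strand. The high values enclosed the low ones, at 29, 26 and 14 fragments against 19, 26 and 19 fragments. Its unfiltered log2 difference was −0.0016 (SE 0.121; limma adjusted p = 0.998).

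Htr3a, the channel subunit, had 4.64, 7.07 and 4.82 FPKM in the high libraries, against 6.41, 5.89 and 5.996 FPKM in the low libraries. Its gene lies on chromosome 9 from 48899213 to 48911099 on the minus strand. High library 2 was the highest of the 6, and the other high libraries were the lowest. Means were 5.51 ± 1.36 and 6.10 ± 0.274 FPKM in the high and low groups (SD, n = 3 each), with a log2 difference of −0.14 (SE 0.134; limma adjusted p = 0.765). Without high library 2 it was −0.31 (limma adjusted p = 0.208). Of 13 tested genes listed as markers of the Htr3a interneuron class, 8 were higher and 5 lower, and 0 passed. Their median log2 difference was 0.106 (0.00018 over all tested genes). Bulk values do not show in which cells these transcripts lay. Calb2, the calretinin gene, had 48.6, 43.5 and 61.1 FPKM in the high libraries, against 39.7, 33.4 and 35.1 FPKM in the low libraries (log2 difference 0.48, SE 0.124; limma adjusted p = 0.525). Vip stood at 5.34 ± 1.32 and 6.34 ± 1.18 FPKM, Cck at 143 ± 23.0 and 126 ± 12.7 FPKM, and Npy at 92.4 ± 7.48 and 82.2 ± 14.1 FPKM in the high and low groups (SD, n = 3 each), and all 3 overlapped.

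Summed over receptors, the Gi/o-coupled genes gave 14.3, 10.3 and 12.2 FPKM in the high libraries, against 10.6, 11.0 and 11.4 FPKM in the low libraries. The Gq-coupled pair gave 16.1, 9.33 and 14.7 FPKM in the high libraries, against 15.6, 13.9 and 17.2 FPKM in the low libraries. Of the summed FPKM of all 9 genes, the Gq-coupled pair made up 28.6% in high library 2, against 38.8% to 43.5% in the rest. The share of Htr3a was 21.6% in high library 2, against 11.4% to 16.7% in the rest. The total over the 9 genes was 36.9 ± 3.97 FPKM in high libraries and 37.9 ± 1.89 FPKM in low libraries (SD, n = 3 each).

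The spread between libraries was compared with counting error. In the high group the coefficient of variation exceeded 2 times the counting error of 1 library in 5 of the 9 genes. Htr2c varied by 25.6% where counting gives 2.48%, Htr2a by 34.5% where it gives 7.20%, and Htr1a by 26.5% where it gives 6.21%. In the low group this held for 2 of the 9 genes, Htr2c (11.6% and 2.36%) and Htr1b (16.3% and 6.88%). Htr5a varied by 4.37% among high libraries and 5.64% among low libraries, close to its counting errors of 5.14% and 5.47%. For Htr1f the low group varied by 2.72%, below the 21.8% that counting gives.

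**Figure D4:**
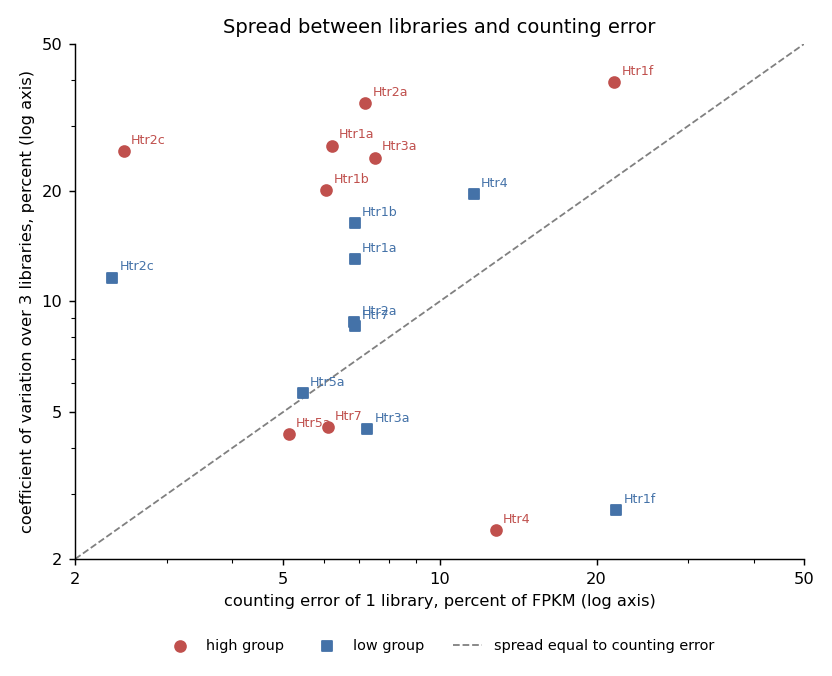
Coefficient of variation over the 3 libraries of a group against the mean counting error of 1 library (both in percent, log axes), for the high group (red circles) and the low group (blue squares), with a dashed line where they are equal. Htr2c lies farthest above the line in the high group, at 25.6% against 2.48%, and Htr4 of the high group and Htr1f of the low group lie far below it.

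High library 2 was the lowest of the high libraries in 5 of the 9 genes and the highest in 2, Htr3a and Htr7. Over all tested genes, transcripts poor in G and C were lower in that library. In the first of 10 classes of rising GC content, the median of log2(FPKM + 1) in high library 2 deviated by −0.30 from the remaining 5 libraries, and in the last of them it deviated by 0.07. Low library 2 had a trend the other way, with a median deviation of 0.14 in the first class and −0.11 in the last. Spearman's rho of the deviation with GC content, across 11910 genes that are not independent, was 0.451 for high library 2, against −0.499 for low library 2, and that of the difference between the groups was 0.401. Apart from Htr3a, the longest coding transcripts of the receptor genes lie in the lower and middle classes. The GC content was 39.4% in Htr1f, 41.3% in Htr2a, 42.1% in Htr2c and 49.1% in Htr1a. That of Htr3a was the highest, at 53.4%, close to the median of class 7 (53.5%). The deviation of high library 2 was −0.54 in Htr2a and −0.65 in Htr2c, and after the trend on GC content and transcript length was removed it was −0.29 and −0.45. Htr1f, the gene with the lowest GC content, deviated by −0.02 before and 0.31 after removal, where the median of its class was −0.30 before. At the low level of Htr1f the added 1 compresses deviations. High library 2 held 26 fragments of it, with a counting interval of 0.356 to 0.799 FPKM. For Htr1a the deviation was −0.31 before and −0.30 after removal, and for Htr3a 0.31 and 0.26. Htr1b (−0.20 and −0.12), Htr4 (−0.15 and −0.06), Htr5a (0.00 and 0.08) and Htr7 (0.19 and 0.18) deviated less. With the trend removed, the difference between the groups was −0.04 for Htr2a, −0.12 for Htr2c and 0.20 for Htr7, and none of the 9 passed.

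**Figure D5:**
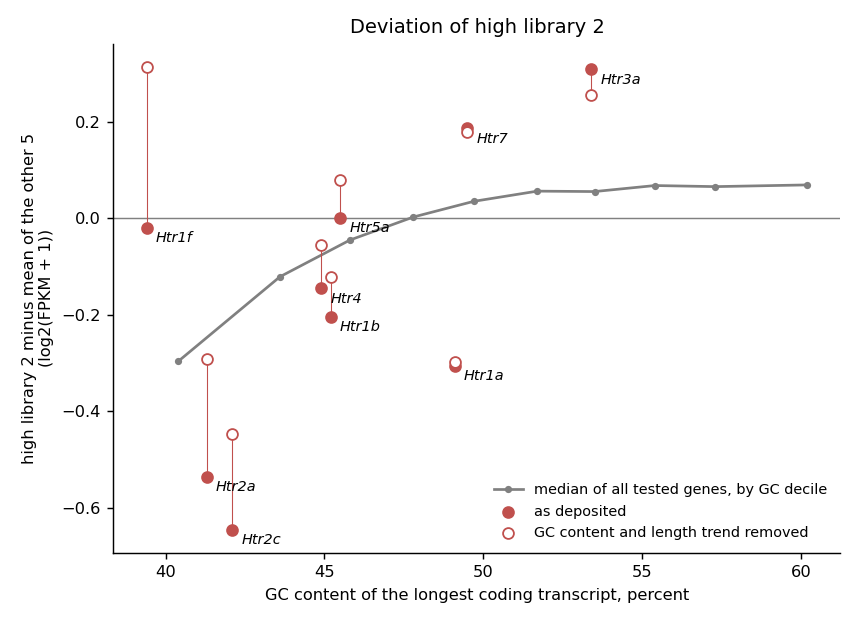
Log2(FPKM + 1) in high library 2 minus its mean over the remaining 5 libraries, against the GC content of each gene's longest coding transcript in percent; filled points are values as deposited, open points are values after the GC content and length trend was removed, and the grey line joins the medians of all tested genes in 10 classes of GC content. Htr2c and Htr2a lie lowest as deposited, at −0.65 and −0.54, and stay below 0 after removal.

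The table lists 3 more receptor genes, none of which passed. Htr5b, a relative of Htr5a, had 0.435, 0.761 and 0.636 FPKM in the high libraries, against 0.867, 1.16 and 0.949 FPKM in the low libraries, with groups that did not overlap and 12 to 40 fragments per library (unfiltered log2 difference −0.31, SE 0.113; limma adjusted p = 0.577). The added 1 compresses this value, which was −0.70 with limma-voom on the fragments (adjusted p = 0.597). Htr1d had 1.29 ± 0.240 FPKM in high libraries and 1.08 ± 0.407 FPKM in low libraries, and Htr6 had 1.95 ± 0.628 and 1.97 ± 0.347 FPKM in the high and low groups (SD, n = 3 each). Htr2b and Htr3b, as well as the serotonin transporter gene Slc6a4 and Tph2, which encodes the enzyme of serotonin synthesis in neurons, are not listed and were not analysed here.

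Among genes that handle serotonin, 6 of 12 were tested, of which 1 was higher and 5 were lower, with 0 called and a median log2 difference of −0.171. Slc29a4, a low-affinity monoamine transporter, had 4.92, 10.6 and 6.99 FPKM in the high libraries, against 14.1, 9.52 and 19.8 FPKM in the low libraries (log2 difference −0.86, SE 0.287; limma adjusted p = 0.564). Its highest values were in low libraries 1 and 3, those with choroid plexus transcripts, and the part of that tissue was not tested. Slc18a2, the vesicular monoamine transporter gene, had 1.27, 0.761 and 1.69 FPKM in the high libraries, against 1.98, 1.81 and 1.66 FPKM in the low libraries (limma adjusted p = 0.596). Maob, a monoamine oxidase gene, was lower in every high library, at 8.60 ± 0.0720 FPKM in high libraries and 10.3 ± 2.03 FPKM in low libraries (SD, n = 3 each; limma adjusted p = 0.613).

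Downstream of the receptors 0 genes were called. Of 8 tested genes of Gi/o proteins and GIRK potassium channels, 2 were higher and 6 lower (median log2 difference −0.125). Kcnj3, a subunit of those channels, did not overlap, at 12.4 ± 1.46 FPKM in high libraries and 14.3 ± 0.476 FPKM in low libraries (SD, n = 3 each; limma adjusted p = 0.599). Of 19 tested genes of Gs proteins and cyclic AMP, 10 were higher and 9 lower (median 0.0456). There Gnas, the gene of the Gs subunit, had 7.93, 7.31 and 9.99 FPKM in the high libraries, against 6.72, 7.23 and 5.93 FPKM in the low libraries (limma adjusted p = 0.582), and Creb1, a transcription factor activated by cyclic AMP, averaged 2.45 ± 0.215 and 3.02 ± 0.136 FPKM in the high and low groups (SD, n = 3 each; limma adjusted p = 0.582). Of 11 tested genes of Gq, phospholipase C and calcium release, 4 were higher and 7 lower (median −0.00904). Of 18 tested receptor partners and regulators, 10 were higher and 8 lower (median 0.00848), with Cc2d1b, which encodes a repressor of Htr1a, at 8.23 ± 0.307 FPKM in high libraries and 6.99 ± 0.552 FPKM in low libraries (SD, n = 3 each; limma adjusted p = 0.575).

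For the 3 most abundant receptor genes, the genes with the most similar course over the 6 libraries were picked by Pearson's r of log2(FPKM + 1) among 12025 tested genes. Since each is the best of that many, r is given as a description with no test. For Htr2c they were Tmem123 (r = 0.987) and Tmem165 (r = 0.984). For Htr3a they were Pepd (r = 0.998) and Unkl (r = 0.993), and for Htr7 they were Dus3l (r = 0.993) and Hdac11 (r = 0.986). Tmem123 had 4.21, 2.30 and 3.92 FPKM in the high libraries, against 4.18, 3.82 and 4.42 FPKM in the low libraries, and shared the low value of high library 2 with Htr2c. Hdac11 had 62.4, 66.1 and 64.1 FPKM in the high libraries, against 60.9, 55.8 and 58.9 FPKM in the low libraries, with groups that did not overlap. Both likenesses to a receptor gene follow from how Tmem123 and Hdac11 were picked.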

How the data were processed

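Gene FPKM were deposited by the authors with 1 column per library, by the name of the table. The submitters' processing notes name the tools fastp, HISAT2 and StringTie and the build GRCm38, without versions or settings. The authors' deposited table also holds a log2 fold change and a p-value for each gene, used only where named. FPKM were taken as log2(FPKM + 1), genes with a mean of at least 1 were kept, and limma (version 3.58.1, under R 4.3.3) with a variance trend tested high against low. The members and gene lists were chosen with earlier results of these data known. Named are the receptor genes, up to 3 genes per list with the smallest p, genes whose role is described, and the 2 most similar genes for each of the 3 most abundant receptors; not every gene so chosen is printed. FPKM multiplied by the merged exon length (GENCODE M21) came out whole within 0.1 in 93.8% to 94.0% of genes under 1000 fragments, at the library sizes given; this whole number is taken as the fragment count, and its Poisson 95% intervals cover counting error only. For Htr1f and Htr4 the length was searched within 10% of the annotated one. The fit was tested on simulated data. Alternatives were other pseudocounts, filters, scalings, weights, covariates, a replicate block and each library left out; voom on the fragments, and leaving out low libraries 1 and 3, were added after seeing the data.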

Additional observations from a re-analysis of the deposited data

How the results depend on the processing

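No receptor gene passed the test under any of the alternatives run, and 0 genes of the whole table were called under each, with 361 to 1567 genes at an unadjusted p under 0.05. Htr1a, Htr2c, Htr3a, Htr4, Htr5a and Htr7 kept the sign of their log2 difference under every alternative. Reversed were Htr1f with quantile normalization (0.0022), array weights (0.0608) and the GC content and length trend removed (0.12), Htr2a with array weights (0.0135), and Htr1b with low libraries 1 and 3 left out (−0.0185); the cause was not tested. That last fit assumes that the lone low library varies like the high libraries. Htr2a reversed without high library 2, and Htr1f did so in 3 of the fits that lack a library (high 2, high 3, low 2). With each library left out in turn, the log2 difference ran from 0.01 to 0.32 for Htr1a, 0.08 to 0.31 for Htr1b, −0.11 to 0.10 for Htr1f, −0.33 to 0.0253 for Htr2a, −0.35 to −0.02 for Htr2c, −0.31 to −0.05 for Htr3a, −0.29 to −0.16 for Htr4, 0.02 to 0.09 for Htr5a and 0.16 to 0.25 for Htr7. With voom on the fragments Htr7 had a log2 difference of 0.25 (adjusted p = 0.587) and Htr4 one of −0.43 (adjusted p = 0.599). The deviations of same-numbered libraries correlated at −0.09, −0.21 and −0.16 across genes. These values cannot settle whether the replicate numbers pair the libraries, since the GC trends of single libraries also enter them. The replicate block cannot move a difference in this balanced design. With it 743 genes had an unadjusted limma p under 0.05, and Htr7 (0.20) had an unadjusted limma p of 0.0795 (adjusted p = 0.757). The filter at a mean of 5 FPKM left out all receptor genes but Htr2c and Htr3a. Depth limits Htr1f and Htr4 most, with at most 29 and 103 fragments in a library.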

Other observations

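The steps of the FPKM allowed a check of how the deposited values had been made, which the labels do not describe. Over 13039 genes matched to the annotation, 91.7% to 93.3% of all values per library came out as whole fragments within 0.1 when multiplied by the merged exon length, and the fragments in the table summed to 13356000 to 18603000 per library. Most values, though not those of Htr1f and Htr4, thus fall on whole fragments per merged exon length. Htr2c, whose merged exons exceed its longest coding transcript in length, is listed at a lower FPKM than that transcript would give.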
